A study of Arabidopsis thaliana with 27 samples.

Results

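The endo-beta-mannanase genes of Arabidopsis, MAN1 to MAN7, were followed through dormant seeds of the Cvi accession during the first hours of imbibition. The members were chosen by gene code as the named endo-beta-mannanases, with earlier results of these data known. The listed identifiers were AT1G02310_at (MAN1), AT2G20680_at (MAN2), AT3G10890_at (MAN3), AT3G10900_at (MAN4), AT4G28320_at (MAN5), AT5G01930_at (MAN6) and AT5G66460_at (MAN7). The array values held 6 of these 7 genes among 21313 genes in all, and MAN4, which directly neighbours MAN3 on the chromosome in the RefSeq annotation (TAIR10.1), was not analysed here. Transcript levels were measured on Affymetrix ATH1 arrays in 27 RNA samples that formed 9 groups of 3 replicates. The groups were undissected dormant dry seeds, the radicle and hypocotyl (RAD) of dormant seeds imbibed in water and taken at 3, 7, 12 or 24 HAS (hours after sowing), and the micropylar and chalazal endosperm (MCE) at the same 4 times. All seeds were unmodified Cvi, so no group carried a mutation or a transgene. The RAD samples went through another RNA isolation than the MCE and dry seed samples, and therefore isolation and compartment cannot be told apart. Plants were grown in 3 replicates, and the labels do not say what a replicate number shares between groups, so p-values measure the spread between these samples only.

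Mannans are cell wall polymers with a backbone of mannose, in part with glucose in the backbone and galactose on the side. Endo-beta-mannanases cut this backbone inside the chain. In seeds of several species, the cap of endosperm over the root tip is rich in mannan and its hydrolysis goes with the loosening of the tissue that the radicle must penetrate, and in Arabidopsis the insertion mutants of MAN5, MAN6 and MAN7 have been described as slow to germinate.

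Values are on the log2 scale of the array normalization, a gene was called expressed in a group when its mean exceeded 5, and differences were tested with limma over all genes at an adjusted p of 0.05. A 3-fold change required in addition that the group means, each raised to at least 4, differed 3-fold. By the mean, 3 members were expressed in at least 1 of the 9 groups and 0 members were expressed in all of them. MAN7 was expressed in 5 groups, MAN2 in 4 and MAN5 in 3, whereas the means of MAN1, MAN3 and MAN6 stayed below the threshold in all 9. MAN7 was the 1 member that changed 3-fold in any comparison.

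**Figure D1:**
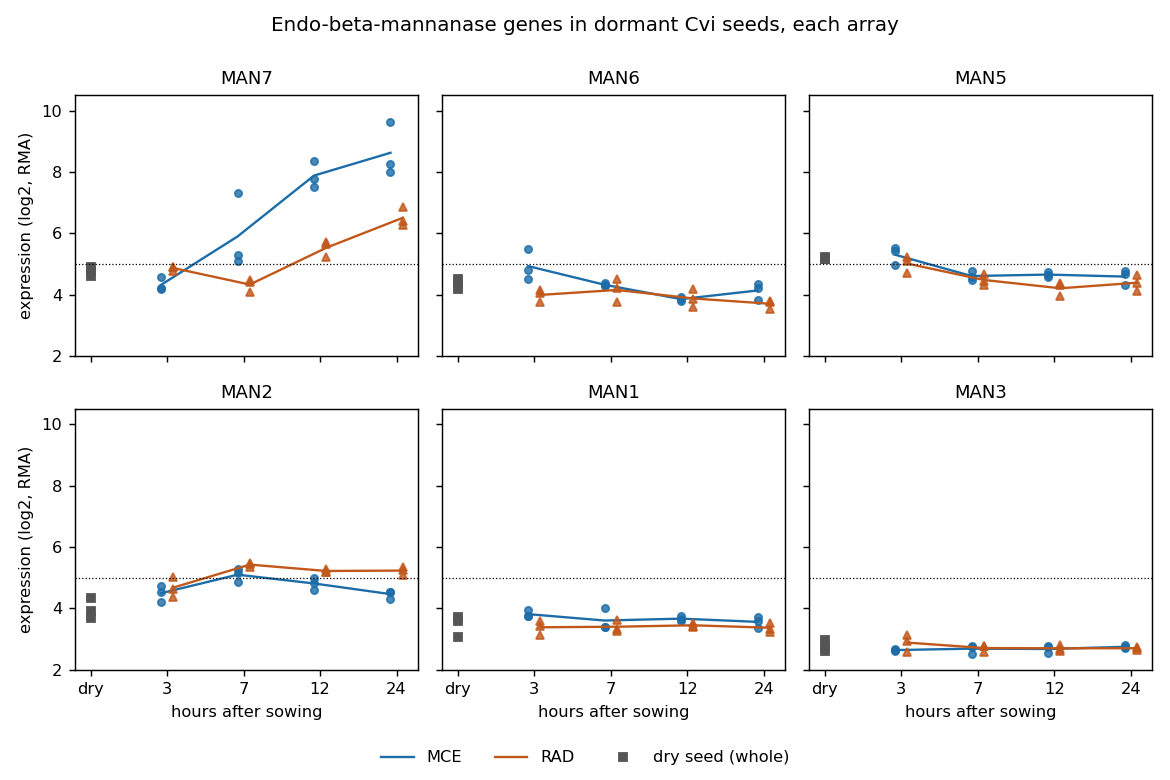
Expression (log2, RMA) of the 6 measured endo-beta-mannanase genes on each array, against hours after sowing (spaced evenly, not to scale). Circles are MCE arrays, triangles RAD arrays and squares undissected dry seeds, lines join the means of 3 arrays and the dotted line marks 5. MAN7 in the MCE climbs to a mean of 8.63 at 24 HAS, while MAN3 stays between 2.52 and 3.15 on all arrays.

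MAN7 rose in both compartments, and by more in the MCE. In dry seeds the 3 arrays gave 4.76, 4.62 and 4.91. In the MCE, the replicates had 4.19, 4.21 and 4.56 at 3 HAS. At 7 HAS the MCE had 7.33, 5.09 and 5.28, and replicate 1 stood far above the other 2 arrays. The MCE arrays then gave 8.36, 7.52 and 7.77 at 12 HAS. At 24 HAS they gave 9.62, 8.27 and 7.99. Replicate 1 was the highest MCE array at 7, 12 and 24 HAS, and all 9 arrays of these times lay above all 3 of 3 HAS.

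From the 3 HAS mean of 4.32 ± 0.21 (SD, n = 3), the MCE mean moved to 5.90 ± 1.24 at 7 HAS, then to 7.88 ± 0.43 at 12 HAS and finally to 8.63 ± 0.87 at 24 HAS. The MCE at 24 HAS exceeded the MCE at 3 HAS by 4.31 (SE 0.39), a 19.8-fold difference (limma, adjusted p = 2.08e-09). Of all 21313 genes, 13 showed a larger increase over this interval (means raised to at least 4). By 7 HAS the MCE had covered 36.6% of the log2 difference between 3 and 24 HAS, and by 12 HAS it had covered 82.7%. The step of 7 over 3 HAS was 1.58 (SE 0.39, adjusted p = 0.00305 in limma), and without replicate 1 of the MCE at 7 HAS it was 0.86 (adjusted p = 0.0411). The step of 12 over 7 HAS was 1.98 (SE 0.39, adjusted p = 0.00114), a 3.96-fold difference that 6 genes exceeded, and without that array it was 2.70. This call was lost when replicate 2 or replicate 3 was left out of all groups (adjusted p = 0.0746 and 0.0590) and when the 2 groups were fitted alone (adjusted p = 0.0601). The step of 24 over 12 HAS was 0.74 (SE 0.39, 95% confidence interval -0.06 to 1.55), with overlapping arrays and an adjusted p of 0.42 in limma. Each array of 24 HAS lay above the array of 12 HAS with the same replicate number, and with that number as a block among the MCE arrays of 7, 12 and 24 HAS the adjusted p was 0.0862.

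In the RAD, MAN7 rose by less. The 3 RAD arrays gave 4.91, 4.79 and 4.91 at 3 HAS. They gave 4.41, 4.09 and 4.49 at 7 HAS, all below those of 3 HAS. The arrays of 12 HAS had 5.66, 5.21 and 5.72. Those of 24 HAS had 6.39, 6.86 and 6.27, with no overlap with any earlier time. The RAD at 24 HAS exceeded the RAD at 3 HAS by 1.64 (SE 0.39, 3.11-fold, limma adjusted p = 0.0013). This lay just above the 3-fold limit, and leaving out replicate 2 of the RAD at 24 HAS (1.46), a further quantile normalization (1.52) or centring of the arrays on their medians (1.46) ended the 3-fold call. No single step in the RAD passed the test in the fit of all 9 groups. The differences were -0.54 for 7 over 3 HAS (adjusted p = 0.359), 1.20 for 12 over 7 HAS (adjusted p = 0.0788) and 0.98 for 24 over 12 HAS (adjusted p = 0.12, all limma). With only the 2 groups of each step fitted, all 3 steps passed, the lower value at 7 HAS included (adjusted p = 0.0156, 0.00361 and 0.0108 in the same order). The SD of MAN7 was 0.07 to 0.31 in the RAD groups and up to 1.24 in the MCE groups, and the fit of all groups shares one estimate of the spread. By the means, 40.3% of the log2 difference between 3 and 24 HAS was covered by 12 HAS.

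The 2 time courses of MAN7 differed from each other by direct test. The change of 24 over 3 HAS was larger in the MCE than in the RAD by 2.67 (SE 0.55, limma interaction adjusted p = 0.00163). Of all genes, 42 had a larger interaction in this direction. The interaction for 7 over 3 HAS was 2.12 (SE 0.55, adjusted p = 0.0287), and it was lost without replicate 1 of the MCE at 7 HAS, where it was 1.40 (adjusted p = 0.0577). It was also lost without any 1 of replicates 1 and 2 of the MCE at 3 HAS, replicates 1 and 3 of the RAD at 3 HAS or replicate 2 of the RAD at 7 HAS (at most 2.10, highest adjusted p = 0.0707). Of the 6 members, MAN7 was the 1 that passed either interaction test, against 11.7% of all genes for 24 over 3 HAS and 4.22% for 7 over 3 HAS.

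Between the compartments, MAN7 had 4.32 in the MCE and 4.87 in the RAD at 3 HAS, a difference of -0.55 (SE 0.39) that did not pass the test (limma adjusted p = 0.321), although the arrays did not overlap and the difference passed with these 2 groups fitted alone (adjusted p = 0.0136). From 7 HAS on, MAN7 was higher in the MCE on every array. The MCE exceeded the RAD by 1.57 at 7 HAS (SE 0.39, adjusted p = 0.00182), and by 0.85 without replicate 1 of the MCE at 7 HAS (adjusted p = 0.0286). At 12 HAS the MCE was higher by 2.35 (5.11-fold, adjusted p = 1.84e-05) and at 24 HAS by 2.12 (4.35-fold, adjusted p = 6.94e-05, limma throughout). In compartments cut from seeds, fewer cells with the transcript and less transcript per cell cannot be told apart.

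In the order of its means, MAN7 stood highest in the MCE at 24 HAS, then in the MCE at 12 HAS, the RAD at 24 HAS, the MCE at 7 HAS, the RAD at 12 HAS, the RAD at 3 HAS, dry seeds, the RAD at 7 HAS and the MCE at 3 HAS. Among these neighbours, sorted by the same means, the 1 pair that passed the test was the MCE at 12 HAS over the RAD at 24 HAS (1.38, SE 0.39, limma adjusted p = 0.00579). The SE is the same for all pairs, because the fit shares one spread over all 9 groups. Arrays also did not overlap for the RAD at 12 HAS over the RAD at 3 HAS and for dry seeds over the RAD at 7 HAS.

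Markers of the tissues were read beside these values. EPR1, an extensin-like gene of the micropylar endosperm, had 13.84, 13.78 and 13.72 in the MCE at 24 HAS and 6.16, 6.16 and 7.01 in the RAD, a difference of 7.34 where that of MAN7 was 2.12. Within the RAD, EPR1 was lower at 24 than at 3 HAS (-0.83, SE 0.17, limma adjusted p = 0.000318), the opposite direction to MAN7. Of the 6 endosperm markers listed, 5 were measured, and 4 of them were expressed in no group. Their summed linear intensity, in the MCE and dry seeds nearly all from EPR1, ranged between 11842 and 15312 in the MCE, between 114 and 221 in the RAD and between 7388 and 7546 in dry seeds. ABI4, a transcription factor of abscisic acid signalling in the embryo, was lower in the MCE by 2.20 to 3.02 at the 4 times. All 6 measured embryo axis markers were lower in the MCE over the mean of the times, a comparison that 59.0% of all genes passed in either direction. Of these 6, however, 4 were expressed in no group, and the markers that were expressed were ABI4 and SCR. The summed intensities of all 6 were 159 to 398 in the MCE, 441 to 629 in the RAD and 153 to 171 in dry seeds. The upper end in the MCE came from SCR, a root patterning gene, which had a mean of 8.04 there at 24 HAS and 6.59 at 3 HAS (1.45, limma adjusted p = 1.28e-08) and so moved with MAN7, whereas ABI4 in the MCE differed by -0.07 over the same interval (adjusted p = 0.797). Of 4 seed coat markers, BAN and TT10 were below 5 on every array. TT10, a laccase-like gene of the coat, was nevertheless higher in the MCE at each time, by 1.12 at 3 HAS (limma adjusted p = 8.38e-07) and by 0.38 at 24 HAS (adjusted p = 0.0387), as MAN7 was from 7 HAS on. Over the mean of the times TT10 and MUM4 were higher in the MCE (0.77 and 0.36) and TT12 was lower (-0.34). The coat sums overlapped between the MCE (79.9 to 147), the RAD (72.9 to 108) and dry seeds (71.7 to 90.0). The part of RNA from neighbouring tissue in the mannanase values was not tested.

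**Figure D2:**
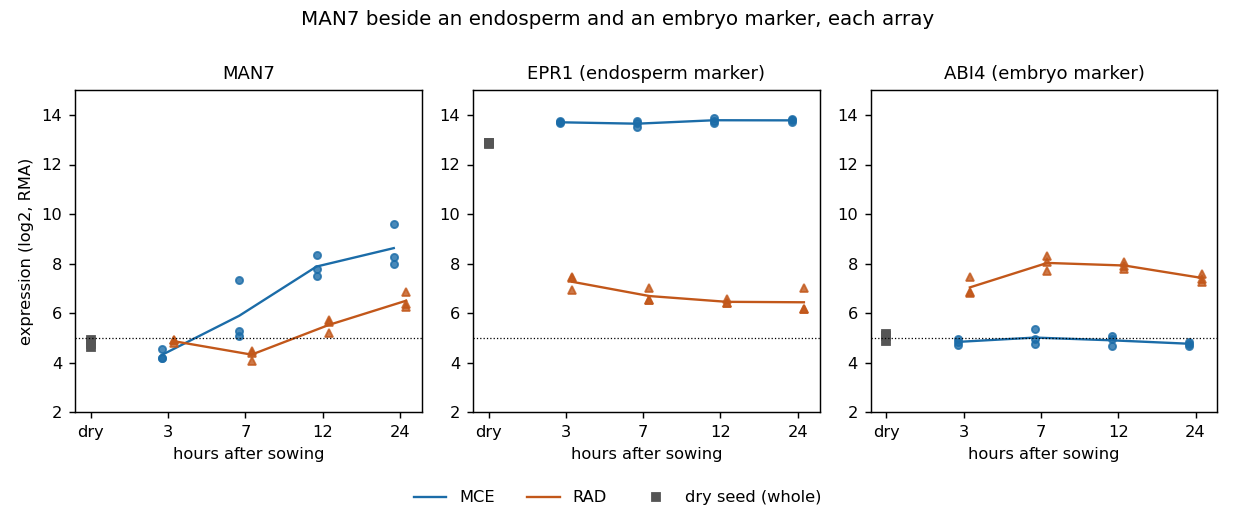
Expression (log2, RMA) of MAN7, the endosperm marker EPR1 and the embryo marker ABI4 on each array, against hours after sowing (spaced evenly). Circles are MCE, triangles RAD and squares dry seeds, lines join the means and the dotted line marks 5. EPR1 at 24 HAS is higher by 7.34 in the MCE over the RAD, and in the RAD it lies lower at 24 than at 3 HAS while MAN7 lies higher.

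MAN5 was lower at 24 than at 3 HAS in both compartments, where MAN7 was higher. At 7 against 3 HAS in the RAD, both had negative differences (-0.53 for MAN5 and -0.54 for MAN7, the latter not past the test). The mean of MAN5 exceeded 5 in dry seeds (5.18) and at 3 HAS (5.30 in the MCE, 5.01 in the RAD) only. These means lay close to the threshold, and the later MCE means of MAN5 were 4.61, 4.66 and 4.59. Its dry seed arrays had 5.23, 5.16 and 5.16. The MCE arrays gave 5.53, 5.42 and 4.96 at 3 HAS, 4.57, 4.48 and 4.78 at 7 HAS, 4.76, 4.65 and 4.56 at 12 HAS and 4.78, 4.67 and 4.32 at 24 HAS. The RAD arrays gave 5.22, 4.72 and 5.10 at 3 HAS, 4.33, 4.43 and 4.68 at 7 HAS, 4.30, 3.96 and 4.37 at 12 HAS and 4.40, 4.65 and 4.12 at 24 HAS. In both compartments every array from 7 HAS on lay below every array of 3 HAS.

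MAN5 was lower at 7 than at 3 HAS by 0.69 in the MCE (SE 0.17, limma adjusted p = 0.00232) and by 0.53 in the RAD (SE 0.17, adjusted p = 0.0163). The RAD call was lost without either of replicates 1 and 3 of 3 HAS or replicates 1 and 2 of 7 HAS (-0.43 to -0.51, highest adjusted p = 0.0977). The MCE call was lost without replicate 1 or replicate 2 in all groups (-0.56 and -0.57, adjusted p = 0.0732 and 0.0711). At 24 against 3 HAS the difference was -0.71 in the MCE (adjusted p = 0.00121) and -0.62 in the RAD (adjusted p = 0.00365), and the difference between these changes was -0.09 (95% confidence interval -0.57 to 0.40, limma interaction adjusted p = 0.883). Of these, the RAD call was lost without replicate 1 or replicate 3 in all groups (-0.52 and -0.45, adjusted p = 0.0709 and 0.0598). No step after 7 HAS passed the test in either compartment. MAN5 at 3 HAS did not differ from dry seeds beyond its spread in the MCE (0.12, adjusted p = 0.673) or in the RAD (-0.17, adjusted p = 0.499).

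MAN6, which has also been tied to secondary walls of the stem, stayed below 5 by its means, with 1 of 27 arrays above it. Its MCE arrays at 3 HAS were 5.48, 4.82 and 4.5, where the first of these stood apart. At 7 HAS the MCE gave 4.31, 4.37 and 4.29, at 12 HAS 3.92, 3.80 and 3.85, and at 24 HAS 4.23, 3.84 and 4.34. The RAD arrays of all 4 times lay between 3.54 and 4.5, and the dry seed arrays had 4.37, 4.17 and 4.51. All MCE arrays after 3 HAS lay below all those of 3 HAS.

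All means of MAN6 lay below 5, within the range that the study treats as noise. In the MCE, its mean was lower by 0.61 at 7 against 3 HAS (SE 0.20, limma adjusted p = 0.0247) and by 0.79 at 24 against 3 HAS (SE 0.20, adjusted p = 0.00251). Without replicate 1 of the MCE at 3 HAS the difference at 24 HAS was -0.52 (adjusted p = 0.0398), and without replicate 2 in all groups its call was lost (-0.70, adjusted p = 0.0585). The call at 7 HAS rested on replicate 1 of the MCE at 3 HAS, without which the difference was -0.34 (adjusted p = 0.236). It was also lost without replicate 1 or replicate 3 of the MCE at 7 HAS (adjusted p = 0.0604 and 0.0615). In the RAD the difference of 24 over 3 HAS was -0.29 (adjusted p = 0.29), and the 2 compartments' changes did not differ by direct test (-0.51, limma interaction adjusted p = 0.299). At 3 HAS, MAN6 in the MCE exceeded MAN6 in the RAD by 0.94 (SE 0.20, adjusted p = 0.000559).

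MAN2 rose early in both compartments and afterwards stayed up in the RAD. The dry seed arrays had 4.35, 3.92 and 3.70. In the MCE the arrays gave 4.55, 4.74 and 4.20 at 3 HAS, 5.16, 5.29 and 4.85 at 7 HAS, 4.85, 5.01 and 4.59 at 12 HAS and 4.32, 4.55 and 4.53 at 24 HAS. In the RAD they gave 4.38, 4.64 and 5.02 at 3 HAS, 5.37, 5.45 and 5.47 at 7 HAS, 5.20, 5.17 and 5.29 at 12 HAS and 5.36, 5.08 and 5.26 at 24 HAS. The MCE arrays of 24 HAS were back among those of 3 HAS, whereas all RAD arrays from 7 HAS on lay above those of 3 HAS.

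At 7 against 3 HAS, MAN2 was higher by 0.60 in the MCE (SE 0.17, limma adjusted p = 0.00823) and by 0.75 in the RAD (SE 0.17, adjusted p = 0.00114). The MCE call was lost without replicate 3 of 3 HAS (0.46, adjusted p = 0.0707), without replicate 2 of 7 HAS (0.51, adjusted p = 0.0512) and after a further quantile normalization (0.44, adjusted p = 0.0616). Leaving out replicate 2 in all groups ended this MCE call as well (0.63, adjusted p = 0.0749). At 24 against 3 HAS the difference was -0.03 in the MCE (adjusted p = 0.919) and 0.56 in the RAD (SE 0.17, adjusted p = 0.0102). The RAD call was lost without replicate 1 of 3 HAS (0.40, adjusted p = 0.088), after quantile normalization (0.40, adjusted p = 0.0682) and after centring (0.38, adjusted p = 0.0585). It was also lost without replicate 1 or replicate 2 in all groups (0.34 and 0.61, adjusted p = 0.212 and 0.0630). The interaction of the 2 changes was -0.59 (SE 0.24) and did not pass the test (limma adjusted p = 0.124). It passed without replicate 3 of the RAD at 3 HAS (-0.76, adjusted p = 0.0403) and without replicate 3 in all groups (-0.92, adjusted p = 0.0293).

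Against the RAD, MAN2 in the MCE was lower by 0.77 at 24 HAS (SE 0.17, limma adjusted p = 0.000559), the only member that was lower in the MCE in any call. The differences at the earlier times were -0.18 (3 HAS), -0.33 (7 HAS) and -0.41 (12 HAS), with adjusted p of 0.465, 0.131 and 0.0561. The last 2 passed when the arrays were centred on their medians (-0.44 and -0.51, adjusted p = 0.0318 and 0.0122). In the order of means, MAN2 stood highest in the RAD at 7, 24 and 12 HAS and lowest in dry seeds, and the 1 pair of neighbours that differed was the MCE at 24 HAS over dry seeds (0.48, adjusted p = 0.0222).

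MAN1 and MAN3 stayed below the expression threshold on every array. MAN1 lay between 3.08 and 4.02 on all 27 arrays. Its highest mean was 3.81 in the MCE at 3 HAS and its lowest 3.37 in the RAD at 24 HAS. No time step of MAN1 passed the test in either compartment, and at 24 HAS the MCE exceeded the RAD by 0.19 (95% confidence interval -0.15 to 0.53). At 3 HAS the MCE exceeded the RAD by 0.43 (SE 0.17, limma adjusted p = 0.0495), a call that was lost without any 1 of 5 of the 6 arrays concerned. Over the mean of the 4 times the difference was 0.26 (adjusted p = 0.00911), a call that was lost without replicate 2 in all groups (0.15, adjusted p = 0.148). MAN3, which has been linked to cadmium tolerance, lay between 2.52 and 3.15, and its 9 means spanned 0.24. It passed none of the 17 comparisons, and its 95% confidence interval for 24 over 3 HAS was -0.15 to 0.36 in the MCE and -0.44 to 0.07 in the RAD. Without replicate 3 of the RAD at 3 HAS, MAN3 was called lower at 7 and 24 than at 3 HAS in the RAD (-0.33 and -0.34) and, at 3 HAS, lower in the MCE against the RAD (-0.40).

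**Figure D3:**
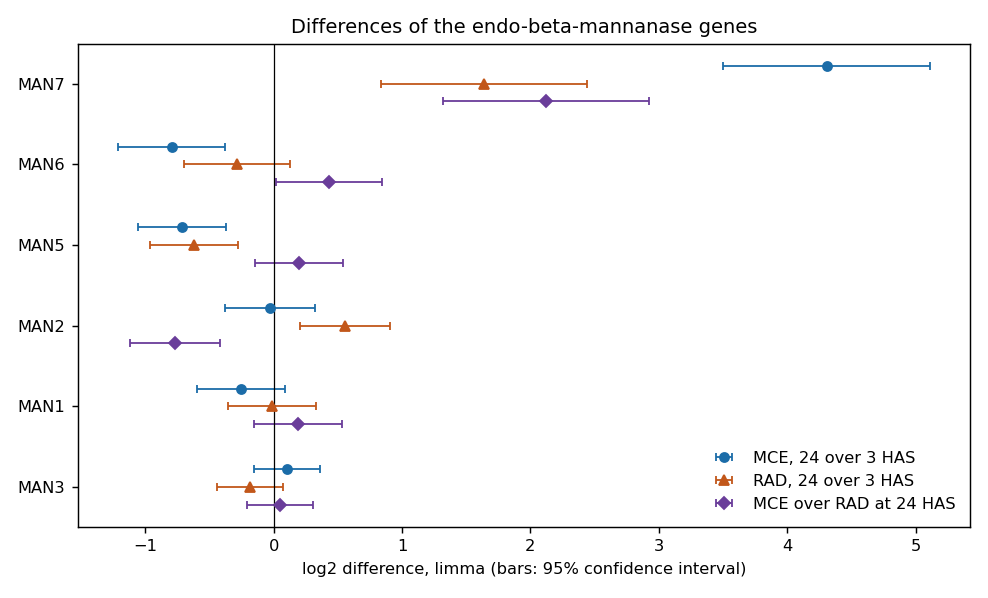
Log2 differences of the 6 measured endo-beta-mannanase genes from the limma fit, with bars for the 95% confidence interval: 24 over 3 HAS in the MCE (circles), 24 over 3 HAS in the RAD (triangles) and MCE over RAD at 24 HAS (diamonds). MAN7 stands at 4.31, 1.64 and 2.12, while the differences of the other members lie between -0.79 and 0.56.

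The members that passed the test were counted in each comparison beside the share of all genes that did. In the MCE, 4 of 6 passed for 7 over 3 HAS (MAN2 and MAN7 higher, MAN5 and MAN6 lower), against 26.9% of all genes. For 12 over 7 HAS 1 of 6 passed, against 12.0%, and with the replicate number as a block among the MCE arrays of 7, 12 and 24 HAS this was 2 of 6, with MAN6 lower by 0.47 (limma adjusted p = 0.0219). For 24 over 12 HAS 0 of 6 passed, against 4.27%, and 3 of 6 passed for 24 over 3 HAS, against 35.6%. In the RAD, 2 of 6 passed for 7 over 3 HAS, 0 for 12 over 7 HAS, 0 for 24 over 12 HAS and 3 for 24 over 3 HAS, against 28.6%, 5.09%, 9.98% and 38.2% of all genes in that order.

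Between compartments, 2 of 6 members passed at 3 HAS, 1 did at 7 HAS, 2 did at 12 HAS and 2 did at 24 HAS, against 33.1%, 40.6%, 41.7% and 39.4% of all genes. Over the mean of the 4 times 5 of 6 passed, against 59.0%, with MAN1, MAN5, MAN6 and MAN7 higher and MAN2 lower in the MCE. The mean differences were 1.37 for MAN7, 0.38 for MAN6, 0.27 for MAN5, 0.26 for MAN1 and -0.42 for MAN2, and MAN3 had -0.06 (adjusted p = 0.428). Without replicate 2 in all groups, the calls of MAN1 and MAN5 were lost (0.15 and 0.22, limma adjusted p = 0.148 and 0.0960). That of MAN5 was also lost without replicate 1 in all groups (0.23, adjusted p = 0.0826). MAN1 and MAN6 were expressed in no group. The median over the 6 members was 0.26, where that over all genes was -0.06. At the single times, MAN5 passed at 12 HAS alone (0.45, adjusted p = 0.0329), and this call was lost without replicate 1 or 2 of the MCE or replicate 2 of the RAD at 12 HAS (0.40, 0.45 and 0.32, adjusted p = 0.103, 0.0675 and 0.175). The 3-fold call held for MAN7 in the MCE for 12 over 7 HAS and 24 over 3 HAS, in the RAD for 24 over 3 HAS, and between compartments at 12 and 24 HAS, where 0.263%, 3.29%, 3.95%, 5.08% and 4.99% of all genes were called. It also held for both interactions, against 1.39% for 24 over 3 HAS and 0.413% for 7 over 3 HAS.

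Against dry seeds, MAN2 was higher at 3 HAS in both compartments and MAN6 in the MCE. Dry seeds were not dissected, so time and tissue differ together in this comparison. For the RAD, the RNA isolation also differed from that of dry seeds. In the MCE at 3 HAS, 2 of 6 members passed, MAN2 with 0.51 (limma adjusted p = 0.0234) and MAN6 with 0.58 (adjusted p = 0.0294), against 30.1% of all genes, and for both the arrays overlapped with those of dry seeds. Without replicate 1 of the MCE at 3 HAS, MAN6 had 0.31 (adjusted p = 0.276), it also lost its call without replicate 1 or 2 of the dry seeds (adjusted p = 0.0620 and 0.121), and MAN2 lost its call without any 1 of 4 of the 6 arrays. In the RAD at 3 HAS 1 of 6 passed, MAN2 with 0.69 (adjusted p = 0.00223), against 31.2%. This call was lost without replicate 3 in all groups (0.37, adjusted p = 0.138) and without replicate 2 (0.68, adjusted p = 0.05004). MAN7 did not pass the test at 3 HAS, with -0.44 in the MCE (adjusted p = 0.455) and 0.10 in the RAD (adjusted p = 0.886). With the MCE at 3 HAS and dry seeds fitted alone, MAN7 passed (adjusted p = 0.0353) and MAN2 and MAN6 did not (adjusted p = 0.0631 and 0.0655).

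Other genes of mannan metabolism were read from 4 lists of 28 genes, 26 of which were measured. The mannan synthesis list held 11 measured genes, among them 9 of the CSLA family of mannan and glucomannan synthases, and 8 of these 9 were expressed in no group. The exception was CSLA2, the glucomannan synthase known from seed mucilage. It was high in the MCE and fell there, with 9.47, 9.19 and 8.98 at 3 HAS and 8.12, 7.57 and 7.12 at 24 HAS, a difference of -1.61 (SE 0.23, limma adjusted p = 2.24e-06). In the RAD its arrays stayed between 4.17 and 4.99. The MCE exceeded the RAD by 4.54 at 3 HAS and by 2.93 at 24 HAS (7.63-fold, adjusted p = 5.22e-11). CSLA2 and MAN7 both had higher values in the MCE at 24 HAS, compared with the RAD, and in the MCE CSLA2 was lower and MAN7 higher at 24 than at 3 HAS.

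MUCI10, the galactosyltransferase that decorates seed mucilage glucomannan, rose in both compartments. It had 6.66, 7.04 and 6.80 in the RAD at 24 HAS and 4.44, 4.19 and 4.64 at 3 HAS (2.41, SE 0.17, limma adjusted p = 1.75e-11). In the MCE it had 5.84, 5.5 and 5.30 at 24 HAS and 4.13, 4.13 and 3.50 at 3 HAS (1.63, adjusted p = 2.11e-08). In the synthesis list 2 genes rose and 2 fell in the MCE for 24 over 3 HAS, and 2 rose and 0 fell in the RAD, against 35.6% and 38.2% of all genes called, with medians of -0.08 and -0.02 beside -0.05 and -0.04 over all genes. The genes that rose in each were MUCI10 and MSR1 (1.25 in the MCE and 1.40 in the RAD), which is needed for mannan synthesis.

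The list of GDP-mannose supply, which provides the sugar donor of the synthases, held 6 genes, of which KJC2 and PMI2 were expressed in no group. PMM, the phosphomannomutase, rose in both compartments. It had 7.04, 6.91 and 7.00 in the MCE at 24 HAS and 4.67, 5.0 and 4.70 at 3 HAS (2.19, SE 0.13, limma adjusted p = 7.25e-13). In the RAD it had 7.84, 8.14 and 7.89 at 24 HAS and 5.72, 5.74 and 5.82 at 3 HAS (2.20, SE 0.13, adjusted p = 5.94e-13). The difference between these changes had a 95% confidence interval of -0.38 to 0.37. In this list 2 of 6 rose in the MCE and 4 of 6 in the RAD for 24 over 3 HAS, 0 fell in either, and the medians were 0.12 and 0.62, beside 35.6% and 38.2% of all genes called and medians of -0.05 and -0.04 over all genes.

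**Figure D4:**
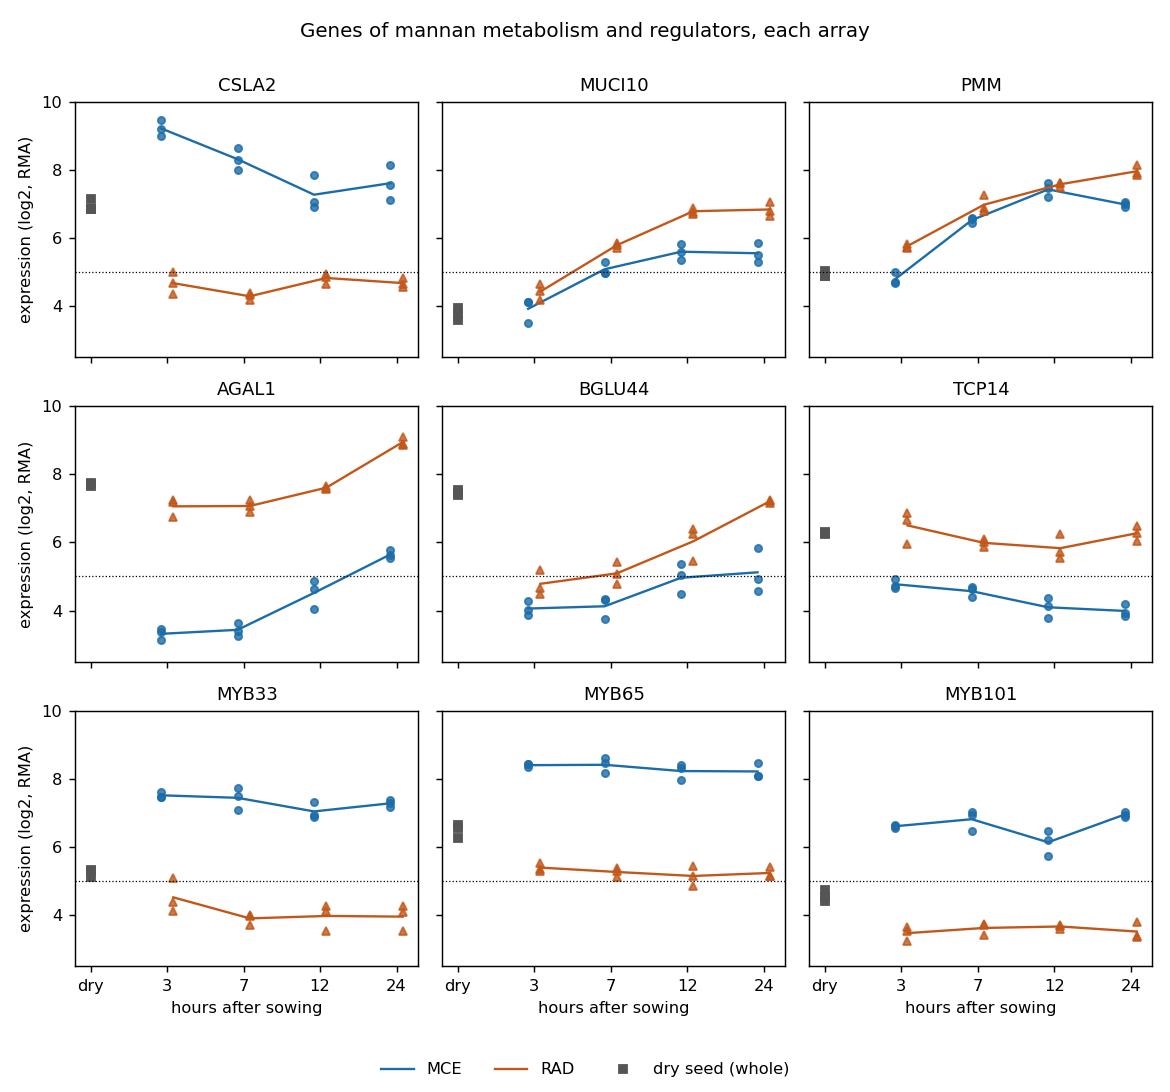
Expression (log2, RMA) of 9 genes of mannan metabolism and its regulators on each array, against hours after sowing (spaced evenly). Circles are MCE, triangles RAD and squares dry seeds, lines join the means and the dotted line marks 5. CSLA2 declines in the MCE, MUCI10, PMM and AGAL1 climb in both compartments, and MYB33, MYB65 and MYB101 lie higher in the MCE at every time.

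Of the hydrolases that act on mannan side chains and on the oligomers left by mannanases, AGAL1 and BGLU44 were lower in the MCE, compared with the RAD, at 24 HAS and rose between 3 and 24 HAS in both. AGAL1, an alpha-galactosidase, had 5.55, 5.76 and 5.63 in the MCE at 24 HAS and 8.88, 8.86 and 9.09 in the RAD, a difference of -3.30 (SE 0.16, limma adjusted p = 8.86e-15). It rose between 3 and 24 HAS in both compartments, by 2.33 in the MCE and by 1.89 in the RAD, and these rises did not differ by direct test (0.45, interaction adjusted p = 0.247). BGLU44, which encodes an enzyme with beta-mannosidase activity, had 5.84, 4.58 and 4.94 in the MCE at 24 HAS and 7.2, 7.16 and 7.25 in the RAD (-2.08, SE 0.27, adjusted p = 5.40e-07). Its change of 24 over 3 HAS measured 1.06 for the MCE and 2.42 for the RAD, smaller in the MCE by 1.36 (SE 0.38, limma interaction adjusted p = 0.0204). Against dry seeds, AGAL1 at 3 HAS was lower by 4.39 in the MCE and by 0.65 in the RAD, and BGLU44 by 3.40 and 2.67 (limma adjusted p of at most 0.00278). At 24 HAS both genes had lower means in the MCE than in dry seeds. Because dry seeds were not dissected, time and tissue differ together here, and for the RAD the RNA isolation differs too. For 24 over 3 HAS, 2 of the 4 genes of the list rose and 0 fell in the MCE, against 35.6% of all genes called. In the RAD 2 rose and 2 fell, AGAL2 and AGAL3, against 38.2%, and AGAL2 was below 5 on every array. At 24 HAS 2 of the 4 genes of the list were lower and 1 higher in the MCE, AGAL3 by 0.35, against 39.4% of all genes called. MAN7 differed between compartments in the opposite direction to AGAL1 and BGLU44.

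Of 6 listed regulators 5 were measured, 4 of which differed between MCE and RAD at 24 HAS against the same 39.4%, and BZIP44, known as a factor that binds the MAN7 promoter, was not analysed here. MYB33, MYB65 and MYB101, related MYB factors of gibberellin responses in the aleurone, were higher in the MCE at all 4 times. At 24 HAS the MCE exceeded the RAD by 3.33 for MYB33, 2.98 for MYB65 (7.88-fold) and 3.43 for MYB101 (10.8-fold), with limma adjusted p of 2.21e-12, 1.98e-14 and 5.36e-15. For 24 over 3 HAS in the MCE the differences were -0.23, -0.18 and 0.34 for these genes, and none passed the test. TCP14, a factor that promotes germination in the embryo, was lower in the MCE by 2.28 at 24 HAS (SE 0.19, adjusted p = 2.69e-10), and in the MCE it fell by 0.78 between 3 and 24 HAS (adjusted p = 0.00184).

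Across the 9 group means, the members did not share a single pattern. The 15 pairwise Pearson correlations ranged from -0.79 for MAN2 with MAN5 to 0.73 for MAN5 with MAN6, and MAN1 with MAN6 gave 0.67. MAN7 correlated with the other 5 between -0.46 and 0.14. These values rest on 9 points that share arrays and a normalization, and they describe these groups only.

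Among 8927 genes that were expressed in at least 1 group and spanned at least 1 over the means, those most like MAN7 were AT1G77420 (r = 0.98 over 9 means), SERK2 (0.98), a receptor kinase gene, and AT1G77460 (0.97). AT1G77420 had 4.90, 5.08 and 5.20 in the MCE at 24 HAS and 2.93, 3.18 and 3.28 at 3 HAS, a difference of 1.93. Its difference in the RAD was 0.62. SERK2 differed by 1.35 in the MCE and by 0.68 in the RAD for 24 over 3 HAS, and AT1G77460 by 1.22 and 0.70. AT1G77420 and AT1G77460 had means above 5 in the MCE at 24 HAS only (5.06 and 5.08). The difference of MAN7 in the MCE was 4.31.

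The genes most like MAN2 were AT5G32450 (0.99), the histone gene HTA2 (0.98) and AT5G13610 (0.98). AT5G32450 and HTA2 were lower in the MCE, against the RAD, at 24 HAS by 0.92 and 0.95, as MAN2 was by 0.77. The genes most like MAN5 were ATG18H (0.99), of the autophagy machinery, the abscisic acid receptor gene PYL7 (0.99) and HGO (0.99), which acts in tyrosine breakdown. Their differences for 24 over 3 HAS in the MCE were -0.85, -1.54 and -0.97, beside -0.71 for MAN5.

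**Figure D5:**
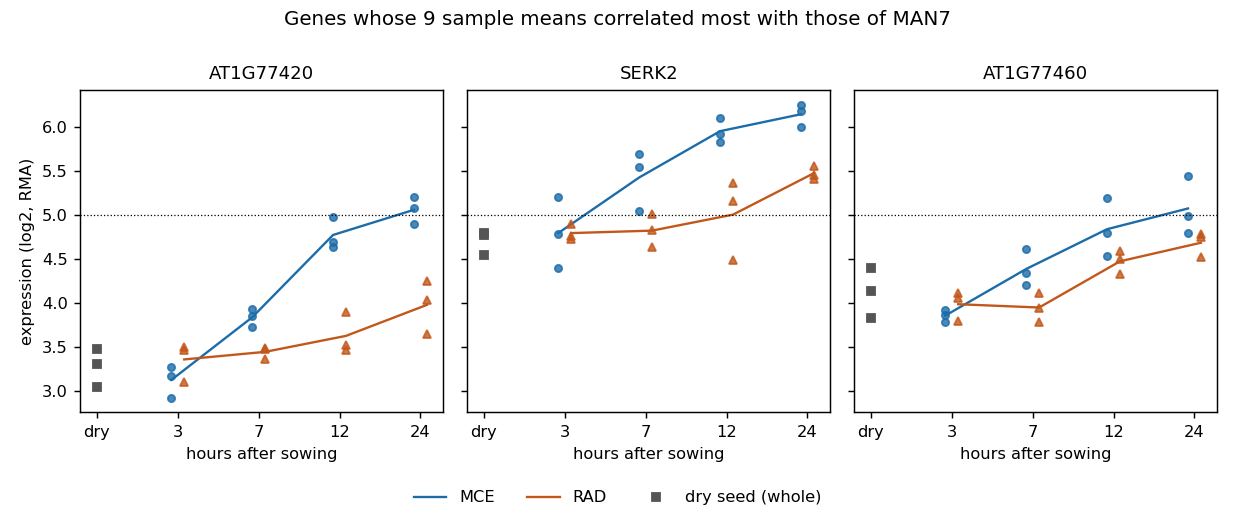
Expression (log2, RMA) on each array of the 3 genes whose 9 group means correlated most with those of MAN7, against hours after sowing (spaced evenly). Circles are MCE, triangles RAD and squares dry seeds, lines join the means and the dotted line marks 5. AT1G77420 climbs furthest in the MCE, by 1.93 from 3 to 24 HAS.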

How the data were processed

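The authors normalised the arrays by RMA, together with further arrays of seeds, using a chip definition with 1 value per gene, and deposited log2 values, which were used as given. No raw intensities were used, and the number of arrays limits the precision. Groups were taken from the labels. All 27 arrays in 9 groups were fitted with limma (version 3.58.1 in R 4.3.3), and p-values were adjusted after Benjamini and Hochberg over 21313 genes within each of 17 comparisons. The expression threshold of 5, the floor of 4 and the 3-fold rule follow the study, whose plain t-test was run as an alternative. All members were named, with the pathway genes that changed 3-fold between 3 and 24 HAS in either compartment or between MCE and RAD at 24 HAS, and for each expressed member that spanned at least 1 the 3 genes with the most similar means. Further genes of the lists were named after their values were seen. The members and lists were chosen with earlier results of these data known. Names of the members and listed genes were set with the lists, and some of them, such as MAN3 and MUCI10, are not in the RefSeq table of TAIR10.1. That table matched 21205 genes and gave the names of the genes with similar means and the gene order. No sequence was used. The fit was tested on simulated data. Replicate arrays correlated at 0.987 to 0.996, arrays of different groups at 0.899 to 0.990, and 0 pairs were identical. Arrays with the same replicate number deviated together, at over 0.1 in each of the 3 numbers, in 2 of 36 pairs of groups, the MCE at 7 with 12 HAS (lowest 0.21) and at 12 with 24 HAS (lowest 0.211), where the number was therefore also fitted as a block, an alternative chosen after seeing the data. Further alternatives were the groups compared alone, a block over all arrays, quantile normalization, centring on the array median, a filter on dim genes, eBayes with trend and robust variance, other floors and thresholds, and leaving out arrays. Figures were drawn with matplotlib 3.10.9.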

Additional observations from a re-analysis of the deposited data

Results flagged for a closer look

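The changes of MAN7 in the MCE and the RAD differed by direct test. The change of 24 over 3 HAS reached 4.31 for the MCE against 1.64 for the RAD, and the limma interaction was 2.67 (adjusted p = 0.00163). The change of 7 over 3 HAS was 1.58 for the MCE against -0.54 for the RAD, and the limma interaction was 2.12 (adjusted p = 0.0287), which moved to 1.40 (adjusted p = 0.0577) without replicate 1 of the MCE at 7 HAS.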

How the results depend on the processing

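No member's difference changed sign as a call under any setting run. Of 30 calls, 12 were kept in every setting in which they were tested, other than the methods' t-test after Benjamini-Hochberg. The filter on dim genes left out MAN1, MAN3 and MAN6, and the t-test was not run for the interactions or the mean of the 4 times. With only the compared groups fitted, the count of members past the threshold was 1 for RAD 12 over 7 HAS, 1 for RAD 24 over 12 HAS, 1 for MCE at 3 HAS over dry (MAN7, while MAN2 and MAN6 lost their calls) and 0 for the 7 over 3 HAS interaction, and 0 were 3-fold in that interaction or for MCE 12 over 7 HAS. With the replicate number as a block over all arrays, 1 passed for RAD 12 over 7 HAS (MAN7, 1.20, adjusted p = 0.0452 in limma) and 1 for MCE over RAD at 3 HAS, and the block changed no other call. With the block within the MCE, 2 passed for 12 over 7 HAS. Quantile normalization gave 0 members 3-fold for RAD 24 over 3 HAS and 2 past the threshold for MCE over RAD at 7 HAS. Median centring, which shifted the median of all genes by up to 0.21, gave 0 and 2 for the same comparisons, 1 for MCE over RAD at 3 HAS and 1 for MCE at 3 HAS over dry. The filter on dim genes, which tests fewer genes and members, gave 0 for MCE over RAD at 3 HAS, 3 for the mean of the 4 times and 1 for MCE at 3 HAS over dry. Trend and robust variance gave 0 for the 7 over 3 HAS interaction, also 3-fold, and a floor of 5 gave 0 members 3-fold there and for RAD 24 over 3 HAS.

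The methods' t-test, unadjusted, gave 2 for MCE 7 over 3 HAS, 2 for RAD 12 over 7 HAS, 1 for RAD 24 over 12 HAS, 0, 4 and 1 for MCE over RAD at 7 HAS, MCE over RAD at 12 HAS and MCE at 3 HAS over dry, 0 for RAD at 3 HAS over dry, and 0 members 3-fold for MCE 12 over 7 HAS. After Benjamini-Hochberg it gave 1 for each of MCE 24 over 3 HAS, RAD 24 over 3 HAS and MCE over RAD at 12 and 24 HAS. It gave 0 for MCE 7 over 3 and 12 over 7 HAS, RAD 7 over 3 HAS, MCE over RAD at 3 and 7 HAS and both comparisons with dry seeds, and 0 members 3-fold for MCE 12 over 7 HAS and MCE over RAD at 24 HAS, where MAN7 had 2.12 (adjusted p = 0.0553).

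Leaving out arrays, MAN7 ranged between 3.75 and 4.74 for MCE 24 over 3 HAS, 1.42 and 1.78 for RAD 24 over 3 HAS, 1.57 and 2.48 for MCE over RAD at 24 HAS and 2.03 and 3.01 for the 24 over 3 HAS interaction, and passed throughout. The members past the threshold numbered 1 to 4 for MCE 7 over 3 HAS, 0 to 1 for 12 over 7 HAS and 2 to 3 for 24 over 3 HAS. In the RAD they numbered 1 to 2 for 7 over 3 HAS, 0 to 1 for 12 over 7 and 24 over 12 HAS and 1 to 4 for 24 over 3 HAS. Between compartments they numbered 1 to 3 at 3 HAS, 1 at 7 HAS, 1 to 2 at 12 HAS, 2 to 3 at 24 HAS and 3 to 5 over the mean. Against dry seeds they numbered 0 to 2 in the MCE and 0 to 1 in the RAD, and in the interactions 1 to 2 for 24 over 3 HAS and 0 to 1 for 7 over 3 HAS. The 3-fold count was 0 to 1 for MCE 7 over 3 and 12 over 7 HAS, RAD 24 over 3 HAS, MCE over RAD at 7 and 24 HAS and the 7 over 3 HAS interaction. Without replicate 1 in all groups, MCE over RAD at 24 HAS for MAN7 was 1.57 and no longer 3-fold. Unless the construction of a setting is stated, the cause was not tested.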
